A study of Mus musculus with 2 samples.

Results

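This account follows 10 genes of fibroblast growth factor (FGF) signalling, out of 19202 genes in the count table, in telencephalic tissue from embryonic day 12 mice. The members were given as a list of symbols and found by their Ensembl identifiers, and all 10 were in the table. They are the receptor genes Fgfr1, Fgfr2 and Fgfr3, the ligand gene Fgf15, and 6 genes that signalling through the kinase ERK is known to induce: Spry1, Spry2, Spred1, Etv4, Etv5 and Dusp6. RNA sequencing compared H2AZcKO mice, in which the histone variant gene for H2A.Z is conditionally deleted, with H2AZfl/fl mice, which carry the floxed allele, both on the C57BL/6 background. Triplicates are mentioned in the series text, yet the table holds 1 count column per genotype, called a library here, and whether a column pools embryos was not given in the sources used here. Nor do they name the Cre driver, and so the cells that carry the deletion. The tissue label is the telencephalon, while the extraction protocol speaks of cortex.

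FGFs are secreted ligands that dimerise receptor tyrosine kinases, and the activated receptor recruits adaptors that switch on RAS, RAF, MEK and ERK in turn. ERK activity induces the ETS transcription factors Etv4 and Etv5 together with inhibitors that damp the same cascade, so the messenger levels of these targets are widely used to read out FGF signalling. In the embryonic telencephalon FGFs from the anterior midline pattern the cortex, and FGF receptors act in the progenitors of the ventricular zone.

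The H2AZ cKO library held 8839840 counts and the control library 8891198. Levels are reads per 1000000 library reads (CPM) after scaling of the libraries, and ratios are H2AZ cKO over floxed control. Ratios carry exact 95% binomial (Clopper-Pearson) intervals, which cover counting error only, and the labels mention no molecular identifiers that would make reads independent. With 1 library per genotype there is no replicate check and no test of the genotype. The targeted gene H2afz stood at 191 CPM against 289 CPM, with a ratio of 0.661 (0.621 to 0.703). Its counts cover the whole gene rather than the deleted part. Setd2, the histone methyltransferase gene in the series title, had a ratio of 0.894 (0.826 to 0.968), and of 0.932 (0.860 to 1.01) after removal of a trend fitted jointly on transcript length, GC content and level (trend removal). The X-inactivation transcript Xist was at 732 CPM against 22.2 CPM and the Y-linked Kdm5d at 0.574 CPM against 71.8 CPM, so the libraries also differ in sex-linked transcripts. Genotype and the sex of the embryos behind each column cannot be told apart.

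The 10 genes differed little between the genotypes. Fgfr1 and Fgfr3 were slightly lower in the H2AZ cKO, by 9.62% and 13.0%, while Fgfr2 lay near 1 and Fgf15 and 5 of the 6 targets lay slightly above 1 with intervals that include 1. On the log2 scale, 51.0% of all genes with at least 1 CPM in the higher library lay above 0. No member was at least 25% higher, or lower by the same factor (20%), sizes passed upward by 7.94% and downward by 9.79% of the 14586 genes with at least 1 CPM in the higher library. Among the 11590 genes with at least 5 CPM, a level that all 10 members reach, the shares were lower, 5.004% upward and 6.13% downward. The counting interval lay below 1 for 2 of the 10 members, Fgfr1 and Fgfr3, and for 11.2% of all genes. It lay above 1 for 0 of the 10 members and for 12.6% of all genes. With so few members, 2 of 10 is not far from the background share. For Fgf15, Spry1, Spry2, Etv4, Etv5 and Dusp6 the interval reaches past 1 or both of these sizes, so the depth leaves differences that large possible there.

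**Figure D1:**
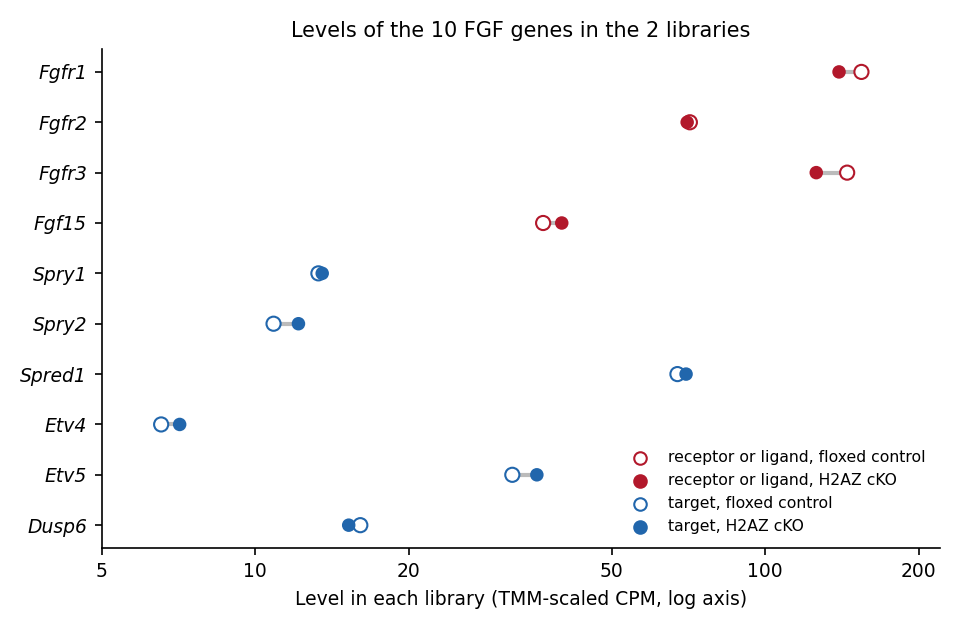
Level of each of the 10 genes (horizontal, TMM-scaled CPM, log axis) in the floxed control (open circles) and the H2AZ cKO (filled circles), receptors and ligand in red and targets in blue, with 1 library per circle. Levels run from 6.54 CPM for Etv4 to 154 CPM for Fgfr1 in the control, and the 2 circles of each gene lie close together.

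The 3 receptor genes encode tyrosine kinases with extracellular immunoglobulin domains. Fgfr1 (ENSMUSG00000031565, chromosome 8 at 25513654 to 25575714) was read 1217 times in the H2AZ cKO and 1393 times in the control, or 139.6 CPM against 154 CPM, and its ratio was 0.904 (0.836 to 0.977). Fgfr3 (ENSMUSG00000054252, chromosome 5 at 33721674 to 33737068) had 1098 and 1306 counts, or 126 CPM against 145 CPM, and its ratio was 0.870 (0.802 to 0.943). Fgfr2 (ENSMUSG00000030849, chromosome 7) had 613 and 642 counts, or 70.3 CPM against 71.2 CPM, and its ratio was 0.988 (0.883 to 1.11). The H2AZ cKO library was thus the lower of the pair for Fgfr1 and Fgfr3, while the interval of Fgfr2 includes 1. Summed over the 3 receptors, the counts were 2928 and 3341, a ratio of 0.907 (0.862 to 0.953). The differences among the receptors were not resolved: Fgfr3 over Fgfr2 within a library was 1.79 in the H2AZ cKO and 2.03 in the control, a quotient of 0.881 (0.766 to 1.01), and the quotient for Fgfr1 over Fgfr2 was 0.915 (0.798 to 1.05). In tissue RNA, fewer cells of a type and less RNA per cell cannot be told apart.

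Among the 4133 genes at a mean of 50 CPM to 200 CPM, the band that holds the 3 receptors and Spred1, the interval lay below 1 for 14.7% and above 1 for 17.5%. The middle 95% of their log2 ratios, on the log2(CPM + 1) scale used for all log2 ratios here, ran from -0.30 to 0.29. The log2 ratios of Fgfr1 and Fgfr3 were -0.14 and -0.20, inside that range. The authors' deposited table, whose test of 1 column against 1 column was not given in the sources used here, lists adjusted p-values of 0.0140 for Fgfr1 and 0.00106 for Fgfr3 and values from 0.587 to 0.899 for the other 8 members. In the authors' deposited table an adjusted p under 0.05 with a lower level in the H2AZ cKO was held by 7.85% of the tested genes and one with a higher level by 4.7%. There 0 of the 10 members are marked significant, against 1.17% of all tested genes.

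**Figure D2:**
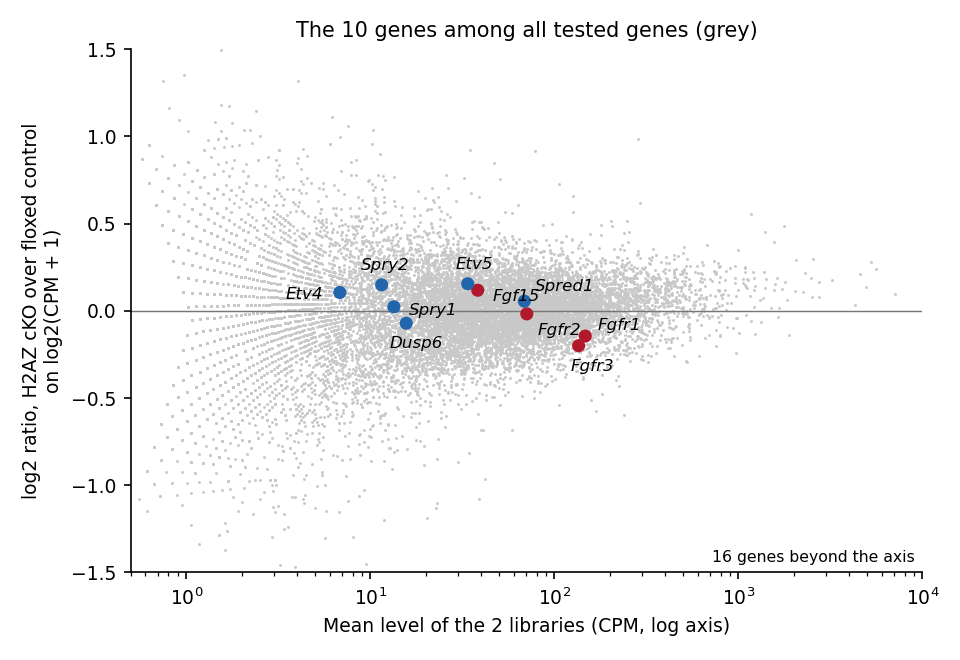
Log2 ratio of the H2AZ cKO over the floxed control (vertical, on log2(CPM + 1)) against the mean level of the libraries (horizontal, CPM, log axis) for the tested genes (grey, 16 lie beyond the axis) and the 10 members (receptors and ligand red, targets blue). The members lie within the cloud of all genes, Fgfr3 at -0.20 being the lowest of them and Etv5 at 0.16 the highest.

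The gene models touch on how the receptor counts can be read. The deposited span of Fgfr2 runs from 130162451 to 133123350, because its model includes a transcript that reaches an exon of Ctbp2 on the same strand, where 314 exon bases are shared. Exons of Fgfr3 share 998 bases with G630022F23Rik and those of Fgfr1 164 bases with Gm16159, both on the opposite strand. Whether reads were counted by strand was not given in the sources used here, and without strand such reads cannot be told apart.

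Levels of different genes were compared per kilobase of exon, with the exons of all annotated transcripts of a gene merged. That length is 10328 bases for Fgfr2, whose longest transcript has 4429, and 6784 for Spred1, whose longest has 6016. The order and the receptor shares below therefore depend on the length used. On this scale Fgfr3 was the most abundant of the 10 genes in both libraries, at 17.6 CPM per kb in the H2AZ cKO and 20.2 CPM per kb in the control. Fgfr1 followed at 14.1 and 15.6 CPM per kb, Fgf15 at 13.06 and 12.004, and Spred1 at 10.3 and 9.92. Lower down stood Etv5 at 8.70 and 7.78 CPM per kb, Fgfr2 at 6.81 and 6.89, Spry2 at 5.83 and 5.21, Dusp6 at 4.87 and 5.13, Spry1 at 4.66 and 4.58, and Etv4 at 2.29 and 2.11. The order of the 10 levels was the same in both libraries. Within that order, Spry2, Dusp6 and Spry1 could not be ranked in either library, since the exact Poisson intervals of neighbours overlap. In the control Etv5 and Fgfr2 overlapped too. In the H2AZ cKO so did Fgfr1 and Fgf15, Spred1 and Etv5, and Fgfr2 and Spry2. Of the per-kilobase level of the 4 FGF receptor genes together, Fgfr3 made up 45.4% in the H2AZ cKO and 47.1% in the control, Fgfr1 36.5% and 36.4%, Fgfr2 17.56% and 16.04%, and Fgfr4 0.585% and 0.510%. The make-up of the receptor pool was thus close to the same in both libraries, with Fgfr4 at 7 counts in each.

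The upstream DNA of the receptors with the largest and the smallest difference is shown here, as RefSeq gives it for GRCm38.p6, from 250 to 51 bases before the annotated start, 5′ to 3′ on the gene's strand. Capitals mark GC boxes (GGGCGG, a site type bound by Sp1 factors) and the ETS-type string AGGAAG, each on either strand. Fgfr3, which has a second annotated start, is chr5:33721474-33721673 on the plus strand, and Fgfr2 is chr7:130266859-130267058 on the minus strand.
Fgfr3: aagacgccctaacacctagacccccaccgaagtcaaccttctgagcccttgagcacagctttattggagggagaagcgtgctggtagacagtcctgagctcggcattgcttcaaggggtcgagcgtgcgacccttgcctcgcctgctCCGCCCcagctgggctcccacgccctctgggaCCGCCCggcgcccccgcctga
Fgfr2: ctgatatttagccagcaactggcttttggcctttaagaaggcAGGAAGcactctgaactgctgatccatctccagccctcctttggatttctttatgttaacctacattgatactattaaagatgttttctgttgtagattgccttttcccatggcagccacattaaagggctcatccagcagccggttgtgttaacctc
The Fgfr3 stretch has a GC content of 65.0% and holds 2 GC boxes, and the Fgfr2 stretch has 44.0% and holds 1 AGGAAG and no GC box, against a median GC content of 51.5% over all 32851 such windows. GC boxes were found in 24.6% and AGGAAG in 23.9% of all windows. These matches describe letters in a window, and neither gene's binding by a factor was measured.

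Fgf15, the rodent counterpart of FGF19, is a secreted ligand expressed in ventricular zone cells of the embryonic forebrain. Fgf15 (ENSMUSG00000031073, chromosome 7 at 144896532 to 144900953) was read 348 times in the H2AZ cKO and 331 times in the control, or 39.9 CPM against 36.7 CPM, giving a ratio of 1.09 (0.933 to 1.27). The H2AZ cKO library was the higher one, and the interval includes 1. Its count relative to the 3 receptors was 0.119 in the H2AZ cKO and 0.0991 in the control, a quotient of 1.20 (1.02 to 1.41) that does not depend on how the libraries are scaled. The receptor sum had a ratio of 0.907, so a gene of unchanged level would also lie above 1 here. Trend removal lowered the log2 ratio of Fgf15 from 0.12 to 0.06 and the quotient to 1.15 (0.977 to 1.35), an interval that includes 1. Exons of Fgf15 share bases with Gm26793 and Gm39119 on the opposite strand.

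Among the inhibitors, the Sprouty proteins Spry1 and Spry2 and the related Spred1 block the step from the receptor to RAS and RAF. Spry1 (ENSMUSG00000037211, chromosome 3 at 37639947 to 37644598) had 118 and 120 counts in the H2AZ cKO and the control, or 13.5 CPM against 13.3 CPM, a ratio of 1.02 (0.782 to 1.32). Its exons share 710 bases with Gm42922 on the opposite strand. Spry2 (ENSMUSG00000022114, chromosome 14 at 105891949 to 105896819) had 106 and 98 counts, or 12.2 CPM against 10.9 CPM, a ratio of 1.12 (0.842 to 1.49). The Sprouty pair summed to a ratio of 1.06 (0.878 to 1.29), an interval that includes 1. Spred1 (ENSMUSG00000027351, chromosome 2 at 117121374 to 117182279) was counted more deeply, with 610 and 607 counts, or 70.0 CPM against 67.3 CPM, a ratio of 1.04 (0.928 to 1.17). Its interval is the narrowest among the targets and also includes 1.

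Dusp6 encodes a phosphatase that removes the activating phosphates from ERK in the cytoplasm. Dusp6 (ENSMUSG00000019960, chromosome 10 at 99263231 to 99267488) had 133 and 145 counts, or 15.3 CPM against 16.1 CPM, a ratio of 0.949 (0.744 to 1.21). It was the single target below 1, and its interval overlaps those of the other 5. Its upstream stretch, chr10:99262981-99263180 on the plus strand, is shown because ETS factors are known to act on Dusp6, beside that of Spred1, chr2:117120821-117121020 on the plus strand, the target with the narrowest interval. Capitals have the meaning given above.
Dusp6: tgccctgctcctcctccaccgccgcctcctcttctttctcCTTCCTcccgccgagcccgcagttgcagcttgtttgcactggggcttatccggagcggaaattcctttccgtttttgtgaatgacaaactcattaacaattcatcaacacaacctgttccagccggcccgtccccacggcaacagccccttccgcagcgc
Spred1: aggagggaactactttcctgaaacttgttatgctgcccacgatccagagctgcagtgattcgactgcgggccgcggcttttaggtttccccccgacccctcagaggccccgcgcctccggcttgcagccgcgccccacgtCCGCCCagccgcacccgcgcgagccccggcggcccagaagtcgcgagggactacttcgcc
Dusp6 holds 1 AGGAAG on the reverse strand and Spred1 1 GC box on the reverse strand. Across the 9 windows of the 7 members found in the RefSeq table, AGGAAG was present in 2 and a GC box in 5. The stricter ETS string CCGGAA, which cannot share its GGAA with AGGAAG, was in 0 of the 9 windows and in 8.03% of all windows. Fgfr1, Fgf15 and Etv4 were not matched in the table.

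Etv4 and Etv5 belong to the PEA3 group of ETS transcription factors and are among the most used readouts of FGF signalling. Etv4 (ENSMUSG00000017724, chromosome 11 at 101769742 to 101785371) was read 62 times in the H2AZ cKO and 59 times in the control, or 7.11 CPM against 6.54 CPM, giving a ratio of 1.09 (0.749 to 1.58). Etv5 (ENSMUSG00000013089, chromosome 16 at 22381309 to 22439719) had 311 and 288 counts, or 35.7 CPM against 31.9 CPM, a ratio of 1.12 (0.949 to 1.32). Both factors were on the higher side in the H2AZ cKO library with intervals that include 1, and their sum gave 1.11 (0.958 to 1.29).

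**Figure D3:**
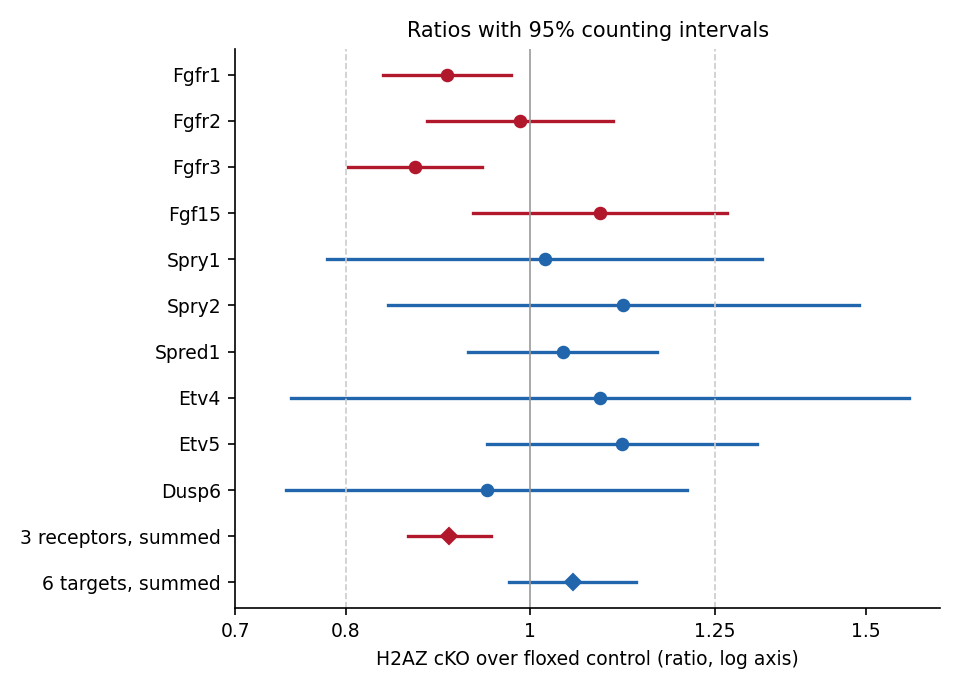
Ratio of the H2AZ cKO over the floxed control (horizontal, log axis) with its 95% counting interval for each of the 10 genes (circles) and for the summed receptors and summed targets (diamonds), receptors and ligand in red and targets in blue. The solid vertical line marks 1 and the dashed lines the 25% size in either direction, and Fgfr1, Fgfr3 and the summed receptors are the entries whose interval stays below 1.

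Set against each other, the receptors were on the lower side and the targets on the higher side. The median log2 ratio was -0.08 over the receptors and ligand and 0.08 over the 6 targets, beside 0.00603 over all 14586 genes, of which the middle 50% lay between -0.14 and 0.14. The summed targets were at 1340 and 1317 counts, a ratio of 1.05 (0.975 to 1.14). Targets relative to receptors stood at 0.458 in the H2AZ cKO and 0.394 in the control, a quotient of 1.16 (1.06 to 1.27), which library scaling cannot move. By single target this quotient was 1.15 (1.01 to 1.30) for Spred1, 1.23 (1.04 to 1.46) for Etv5, 1.23 (0.924 to 1.65) for Spry2, 1.20 (0.823 to 1.75) for Etv4, 1.12 (0.858 to 1.47) for Spry1 and 1.05 (0.816 to 1.34) for Dusp6. The 6 quotients share 1 receptor sum and are not independent of each other. That sum had a ratio of 0.907, so a gene of unchanged level also gets a quotient above 1. The own ratio of each of the 6 targets had an interval that includes 1. Spred1 and Etv5 hold most of the summed target counts, and with scaling by total count the ratio of the summed targets was 1.02 (0.948 to 1.11). With trend removal the quotient of targets over receptors was 1.17 (1.06 to 1.28).

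Several cell type marker lists differed between the libraries too. The lists were chosen with earlier results of these data known, so their differences are not independent support. Among all tested genes 51.0% lay above 0. Sums here cover every counted gene of a list, also those under 1 CPM. In the diencephalic and hypothalamic list 15 of 16 tested genes were lower, and its 18 genes summed to 118 CPM in the H2AZ cKO against 216 CPM. The interval lay below 1 for 11 of the 16, beside 11.2% of all genes. Nkx2-4 had 0 counts in the H2AZ cKO against 25 in the control. Rax, under 1 CPM in both libraries and so not among the 16, had 0 against 9. Of 18 genes of the ventral telencephalon 15 were higher, at a summed 2138 CPM against 1698 CPM, while 12 genes of the dorsal telencephalon summed to 2891 CPM against 2745 CPM. The dorsal list depended on the processing. Of its 12 genes 9 were above 0, but 6 with scaling by total count and 5 with trend removal. Hem and choroid plexus genes summed to 64.2 CPM against 73.9 CPM, with 7 of 9 lower. Endothelial genes summed to 143.5 CPM against 154 CPM, with 8 of 10 lower. The interval of the endothelial sum (0.934, 0.865 to 1.01) and that of each endothelial gene included 1. Microglia and macrophage genes summed to 70.2 CPM against 51.1 CPM, with 12 of 13 higher, and all 9 tested erythroid genes were higher, at 695 CPM against 368 CPM. Meningeal and mesenchymal genes summed to 40.0 CPM against 39.8 CPM. Genes of the surface and olfactory ectoderm reached 3.21 CPM and 3.33 CPM in sum. Of 10 genes of the rostral midline and septum 7 were lower, at a summed 1355 CPM against 1362 CPM. There the interval lay above 1 for 1 gene and below 1 for 3, named here after their values were seen, the transcription factor genes Zic1 at 0.917 (0.861 to 0.975), Zic2 at 0.829 (0.736 to 0.935) and Zic5 at 0.692 (0.574 to 0.833). The part of these cell types in the lower Fgfr1 and Fgfr3 was not tested.

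Beyond the members, 103 other genes of the pathway were taken from lists by role, of which 95 were in the table and 88 reached 1 CPM. Among these 88 the interval lay above 1 for 11 and below 1 for 11, shares close to the 12.6% and 11.2% of all genes, and the median log2 ratio was 0.0150. Scaling by total count gave 6 above and 15 below, beside 8.82% and 15.0% of all genes, and turned the split of log2 ratios from 46 above 0 and 42 below into 37 and 51. Trend removal gave 7 above and 9 below. The other secreted ligands were sparse. Fgf8, the ligand of the anterior midline, had 5 and 4 counts (ratio 1.29, 0.278 to 6.52), and Fgf18 had 18 and 20 (0.931, 0.464 to 1.85). Fgf17 had 49 counts in the H2AZ cKO against 36 (1.41, 0.897 to 2.23), Fgf3 had 50 against 29 (1.78, 1.11 to 2.92) and Fgf9 17 against 33 (0.533, 0.278 to 0.985). Ligand genes thus lay on both sides, 4 of 7 tested above 0 and 3 below, each at few counts. With trend removal the interval of Fgf9 includes 1 (0.546, 0.285 to 1.01).

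Other receptors and surface partners were mostly on the higher side, 11 of 15 tested, beside 51.0% of all genes above 0. With scaling by total count these were 10 of 15 and 43.6%. The decoy-like receptor Fgfrl1, which lacks the kinase, stood at 26.7 CPM against 21.8 CPM (1.22, 1.01 to 1.49), and the secreted FGF-binding protein gene Fgfbp3 at 58.6 CPM against 44.0 CPM (1.33, 1.17 to 1.52). The heparan sulphate carrier gene Sdc2 was at 1.31 (1.0005 to 1.71), and Flrt1, of a family of membrane proteins that bind FGF receptors, was at 0.613 (0.462 to 0.810). Fgfr4 had 7 counts in each library, too few for its ratio to be read. Of the 15, the interval lay above 1 for 5, beside 12.6% of all genes. With scaling by total count or with trend removal it did so for 1, beside 8.82% and 8.58% of all genes. Fgfrl1 was then at 1.19 (0.980 to 1.45) under either, and Sdc2 at 1.27 (0.973 to 1.66) and 1.30 (0.995 to 1.70). The 4 intracellular FGF homologues, which do not signal through the receptors, lay near 1, with Fgf11 at 0.944 (0.798 to 1.12), Fgf12 at 1.16 (0.865 to 1.56), Fgf13 at 1.05 (0.951 to 1.17) and Fgf14 at 0.976 (0.714 to 1.33).

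**Figure D4:**
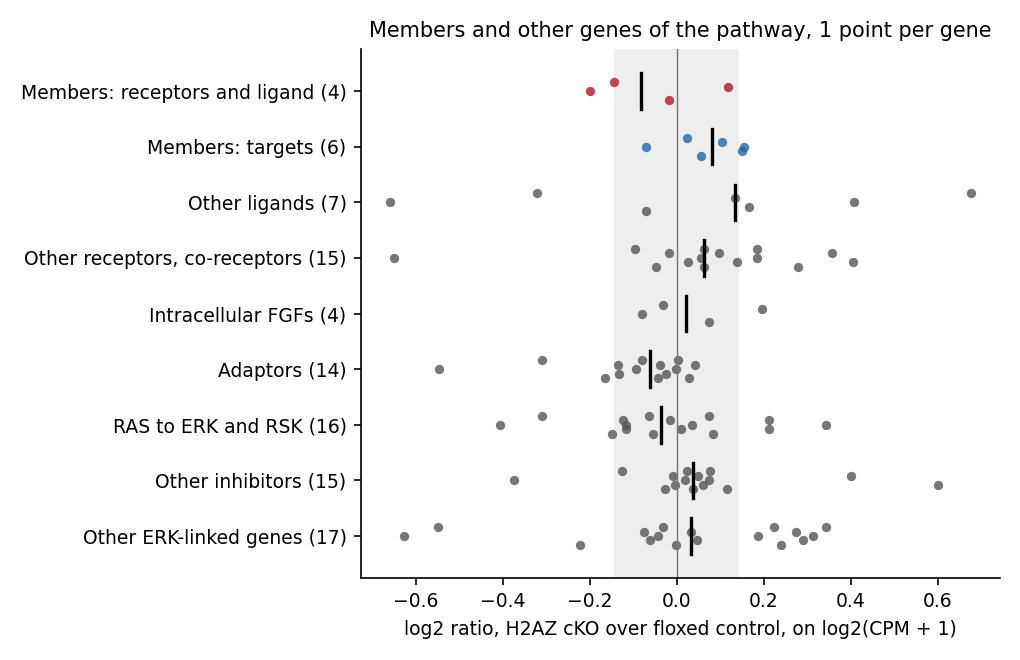
Log2 ratio of the H2AZ cKO over the floxed control (horizontal, on log2(CPM + 1)) for the members and the other tested genes of the pathway by role, with 1 point per gene, a black bar at each median, the number of genes in brackets and a grey band over the middle 50% of all tested genes. Medians run from -0.08 for the receptors and ligand to 0.13 for the 7 other ligands.

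Adaptors, which link the receptor to RAS, were mostly on the lower side, 11 of 14, with a median log2 ratio of -0.06. The 3 adaptors above 0 stand beside 51.0% of all genes, and with scaling by total count 1 stands beside 43.6%. Of the 14, the interval lay above 1 for 0 and below 1 for 2, beside 12.6% and 11.2% of all genes. Ptpn11, which encodes the phosphatase SHP2, was at 129 CPM against 145 CPM (0.891, 0.822 to 0.966), Shc1 at 0.80 (0.661 to 0.967), Shc3 at 0.621 (0.370 to 1.02) and Crkl at 0.909 (0.805 to 1.03). With trend removal Ptpn11 was at 0.938 (0.866 to 1.02), which includes 1. With scaling by total count the intervals of Shc3 (0.603, 0.360 to 0.994) and Crkl (0.884, 0.783 to 0.997) lay below 1. From RAS to ERK and its kinase substrates 7 of 16 genes were above 0 and 9 below, with a median of -0.04. There the interval lay above 1 for 2 and below 1 for 3 of the 16, not all named here. The scaffold genes Ksr1 and Ksr2 were at 1.28 (1.07 to 1.54) and 0.741 (0.582 to 0.941), and trend removal moved Ksr2 to 0.858 (0.674 to 1.09). The RSK genes Rps6ka1 and Rps6ka2 were at 1.17 (0.941 to 1.45) and 0.804 (0.712 to 0.907).

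Among the other inhibitors, the intervals of the Sprouty and Spred family all included 1. Spry4 had 30 and 29 counts (1.07, 0.621 to 1.85), Spred2 588 and 583 (1.04, 0.929 to 1.17), Spred3 372 and 421 (0.914, 0.793 to 1.05), and Il17rd, which encodes the membrane inhibitor Sef, 149 and 152 (1.01, 0.804 to 1.28). Dusp1 and Dusp14 stood at 1.06 (0.922 to 1.21) and 1.09 (0.889 to 1.33). Of the 15 tested, the interval lay outside 1 for Cbl alone, an ubiquitin ligase for activated receptors, at 82.9 CPM against 108 CPM (ratio 0.769, 0.697 to 0.847). Among all genes the interval lay below 1 for 11.2% and above 1 for 12.6%. On the log2 scale Cbl stood at -0.38, and at -0.25 with trend removal.

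Other genes linked to ERK lay on both sides, with 9 of 17 above 0 and 8 below. Of the 17, not all named here, the interval lay above 1 for 3 and below 1 for 3, beside 12.6% and 11.2% of all genes. Etv1, the third PEA3 factor, was at 157 and 170 counts (0.955, 0.764 to 1.19), and its interval overlaps those of Etv4 and Etv5. The immediate early genes Egr1 and Fos were barely counted, at 15 against 12 and 10 against 8. Junb was at 0.591 (0.370 to 0.929) and Fosl2 at 0.655 (0.468 to 0.909). Myc was at 1.249 (1.07 to 1.46) and Ccnd1, which encodes cyclin D1, at 123 CPM against 96.5 CPM (ratio 1.27, 1.16 to 1.39).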

How the data were processed

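The authors deposited 1 whole-number read count per gene and genotype, with HTSeq 0.6.0, TopHat2 2.0.12, Bowtie2 2.2.3 and mm9 named in the submitters' processing notes. Deposited positions match GRCm38 instead: 6 of the 10 members are identical to GENCODE M21 and the others differ by at most 4 bases. The column headed WT per the file headers was taken as the floxed control. The deposited CPM is the count over a constant per library, the deposited ratio (fold change) and its log2 compare those CPM values, and the deposited p-value comes from a test they do not name. Symbols matched 19112 of 19202 identifiers.

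Libraries were scaled by TMM (edgeR 4.0.16, R 4.3.3). Log2 ratios add 1 CPM, and 14586 genes reached 1 CPM in the higher library. Intervals (95%) and figures came from Python 3.11.15 with scipy 1.17.1 and matplotlib 3.10.9. The interval was tested on simulated data that held counting error only, the case it assumes. That check therefore says nothing on differences between embryos or on duplicate reads. The alternatives were scaling by total count, by DESeq2 1.42.0 size factors or as deposited, pseudocounts of 0.1 and 5 CPM, no floor or 5 CPM, other fold sizes, removal of a joint spline trend with transcript length, GC content and level (GENCODE M21), and leaving out X and Y genes. Named genes are all members, H2afz, Setd2, a fixed set of 12 pathway genes, and in each pathway list up to 4 genes with the largest absolute log2 ratio at 50 summed counts or more. The members and lists were chosen with earlier results of these data known.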

Additional observations from a re-analysis of the deposited data

How the results depend on the processing

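The median log2 ratio stayed below 0 for the receptors and ligand (-0.12 to -0.07) and above 0 for the targets (0.04 to 0.09). This held in all 9 settings of scaling, pseudocount, floor, trend removal and sex chromosomes. A pseudocount cannot change the sign of a log2 ratio, and no floor removes a member, so those settings could not turn these signs. The difference of the medians ran from 0.14 to 0.17. Scaling of the libraries moves both medians nearly alike, so it could hardly change that difference. The intervals of Fgfr1 and Fgfr3 stayed below 1 with trend removal, without X and Y genes, and with each other scaling of the libraries. Pseudocounts and floors do not enter these intervals. The median over all 10 members ran from 0.00023 to 0.04. Fgfr2 turned from -0.02 to 0.000924 with the trend removed, and Spry1 from 0.02 to -0.0148 with scaling by total count, both within counting error. Chosen after seeing the data, the settings that move an interval were also run on the 88 other pathway genes, the sums and the quotients. The summed receptors ran from 0.881 to 0.909 with intervals below 1, and the summed targets from 1.02 to 1.06 with intervals that include 1. The background of intervals above and below 1 was 15.0% and 12.6% at 5 CPM and 8.58% and 10.8% with the trend removed. With a size of 1.1-fold in place of 25%, 2 members were higher and 2 lower, beside 25.3% and 25.6% of all genes. Scaling by total count shifted the median of all genes from 0.00603 to -0.0348. Depth limits Etv4, Spry1, Spry2 and Dusp6, whose intervals span 1.62-fold to 2.11-fold from end to end. No paired analysis was possible because there is 1 library per genotype, and for the same reason no library could be left out.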

Other observations

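Of the genes that the deposited annotation assigns to the gene ontology term for FGF receptor signalling, 39 were in the table and 29 reached 1 CPM. They include 4 members, Fgf15 and the 3 receptors. Of the 29 genes, 14 were above 0 and 15 below. Their median log2 ratio was -0.00948, and without the members the median of the other 25 was 0.0372. The interval lay above 1 for 2 and below 1 for 6 of the 29, beside 12.6% and 11.2% of all genes. Fgfr1 and Fgfr3 are among the 6, and without the members the interval lay above 1 for 2 and below 1 for 4 of 25. With trend removal these were 1 and 2 of 25. The median of the 25 was -0.00330 with scaling by total count.

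Some of the genes named above lie near each other on a chromosome. On chromosome 7, Fgf3 lies 52.1 kb from Fgf15, and Fgf15 lies 29.0 kb from Ccnd1. Their ratios were 1.78 for Fgf3, 1.09 for Fgf15 and 1.27 for Ccnd1. Whether other genes lie in these gaps was not checked. Spry1 lies 229.8 kb from Fgf2 on chromosome 3, with ratios of 1.02 and 1.17 (0.641 to 2.15). These positions are given as a description, and no test of neighbours was made.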
